A study of Mus musculus with 12 samples.

Results

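The genes described here are the transcription factor Nrf2 (gene Nfe2l2), its inhibitor Keap1 and 8 antioxidant or detoxifying enzymes known as Nrf2 targets, leaving aside the glutathione transferases. The 10 members were chosen by symbol (Nfe2l2, Keap1, Nqo1, Txnrd1, Srxn1, Gclc, Gclm, Gsr, Hmox1 and Ugdh) from 23185 genes measured, and all 10 were found, each with 1 probe set. Livers of 12 mice killed at 5 days of age were profiled on Affymetrix whole-transcript arrays, 1 mouse per array and 3 mice per group. LKB1 KO livers (Cre positive) were set against LKB1 WT livers (Cre negative), the targeted gene being Stk11, which encodes the kinase Lkb1. RbpJk KO livers (Cre positive) were set against RbpJk WT livers (Cre negative) of their own, the targeted gene being Rbpj, whose protein carries Notch signals to DNA. No group was Cre positive without a targeted gene, and no treatment is named. The study describes its earlier arrays as coming from mice that lost Lkb1 only in the liver, in embryonic life. The LKB1 arm is taken to be that model, and how Rbpj was deleted is not described there. For these newborn mice, neither the promoter driving Cre nor the floxed alleles or strain could be read from the sources used here.

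Nrf2 is a transcription factor of the response to oxidants and electrophiles. In unstressed cells Keap1 holds it for ubiquitination and degradation, and when cysteines of Keap1 are modified, Nrf2 escapes, enters the nucleus and binds antioxidant response elements together with small Maf proteins. Because this control acts on the protein, the mRNA level of Nfe2l2 need not follow Nrf2 activity. In liver the pathway is known for its part in drug detoxification, glutathione supply and resistance to oxidative injury.

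All values are log2 expression as deposited, so a step of 1 is a doubling. Levels are given per array in the order replicate 1, 2 and 3, which carries no meaning. Changes are KO minus WT with the SE of the limma fit, and a change counted as called at a Benjamini-Hochberg adjusted p under 0.05 over all 23185 genes. Array medians lay between 4.84 and 5.01. Stk11 was lower in LKB1 KO livers (-0.80 ± 0.15, adjusted p = 0.0224), and Rbpj changed by -0.73 ± 0.19 in RbpJk KO livers without passing the threshold (adjusted p = 0.0724). In both cases the 3 KO arrays lay below the 3 WT arrays, and the exact permutation test of 3 against 3 gave 0.1, the smallest p it can give. Although every mouse is labelled male, the female-specific RNA Xist was high on all LKB1 WT arrays, on LKB1 KO 3, and on RbpJk WT 1 and RbpJk WT 3, but on no array of RbpJk KO. The Y-linked gene Eif2s3y read 2.30 to 2.94 on those arrays and 7.23 to 7.95 on the others. By these genes the arrays with high Xist are from females, against the label. In both arms the KO and WT groups thus differed in sex makeup as well as genotype. The arms were therefore also fitted with this Xist class as a covariate. Within groups the class varied only through LKB1 KO 3 and RbpJk WT 2. That fit thus rests on those arrays and assumes the same effect of the class in every group. RbpJk WT 1 also stood apart in the pancreatic gene Ctrb1, at 10.44 against at most 6.75 elsewhere. The 5 measured hepatocyte markers, among them Alb and Ttr, were bright in every group, with summed levels between 14.58 and 14.71. In whole liver, fewer cells of a type and less RNA per cell cannot be told apart.

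Across the 10 members, the enzymes of thioredoxin and glutathione reduction and the UDP-glucose dehydrogenase gene Ugdh were higher in RbpJk KO livers, while Nfe2l2 itself was lower. Txnrd1 rose 1.61-fold, Gsr 1.58-fold and Ugdh 2.10-fold, and Nfe2l2 fell 1.5-fold. Of these calls only that of Ugdh was lost with Xist class as a covariate (adjusted p = 0.088) or the 6 arrays of the arm alone (adjusted p = 0.0738). In LKB1 KO livers Ugdh, Srxn1 and Nfe2l2 had their 3 arrays above the 3 controls, by 1.82-fold, 1.94-fold and 1.26-fold, without passing the threshold. Of all genes, 7.77% had their LKB1 KO arrays above the controls in this way. Nqo1, Gclc and Gclm, among the most used readouts of Nrf2, were called in neither arm.

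**Figure D1:**
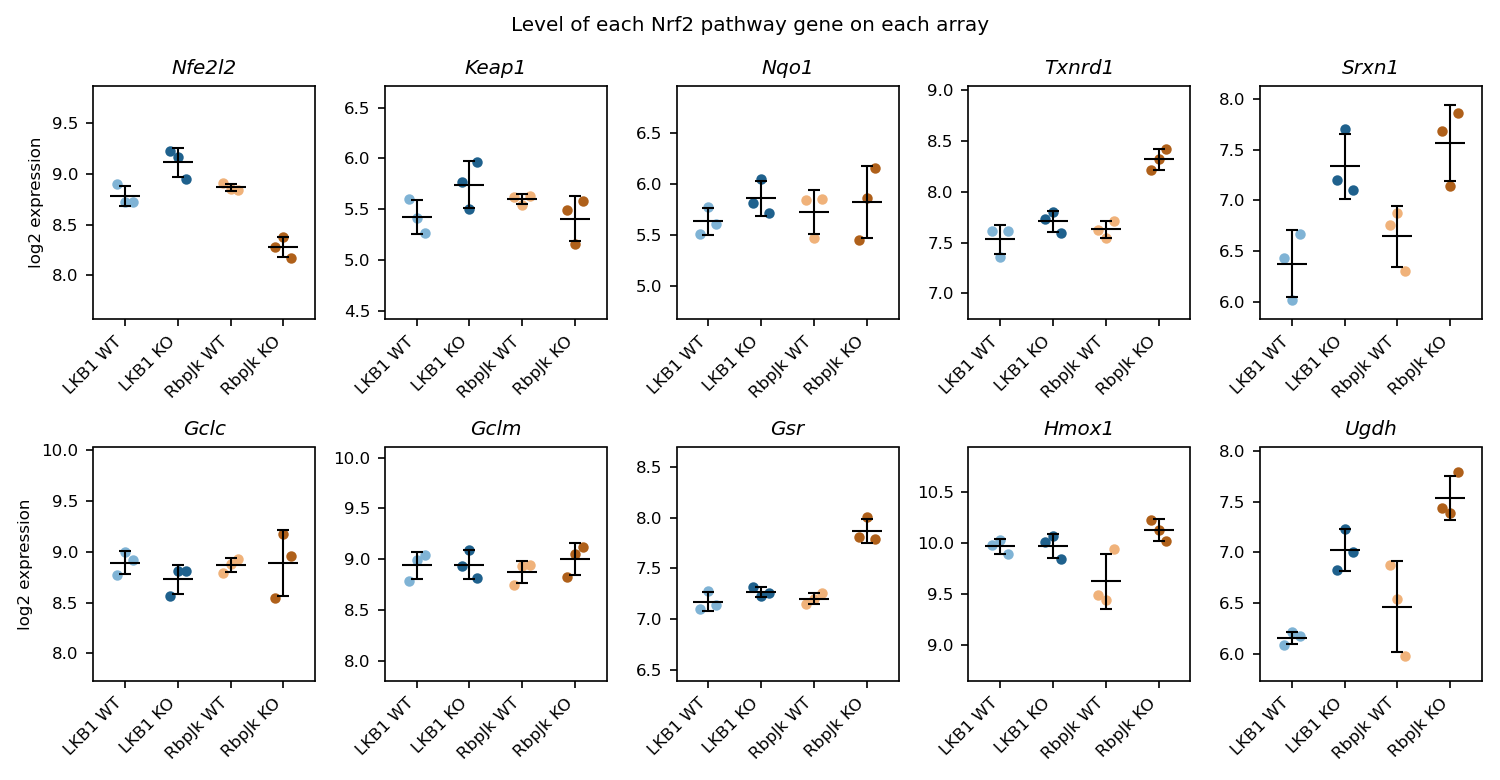
Log2 expression of the 10 genes on each of the 12 arrays, in 1 panel per gene with the 4 groups along the x axis; points are single mice, horizontal lines group means and error bars the SD. Nfe2l2 stands at 8.18 to 8.38 in RbpJk KO livers, below every other array, and Gsr at 7.79 to 8.0 in the same livers, above every other array.

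The members were chosen with earlier results of these data known, so the shares given here describe them and are no test. In the RbpJk arm 3 of 10 members were called up, beside 1.12% of all genes, and 1 of 10 was called down, beside 0.565%. Without regard to the test, 5 members had all 3 KO arrays above the 3 WT arrays, as 8.25% of all genes did, and 1 member had them below, as 8% did. The median change of the members was 0.32, against -0.03 over all genes. In the LKB1 arm 0 of 10 members were called, where 0.418% of all genes were called up and 0.543% down. At an unadjusted p under 0.05 the LKB1 arm had 3 members, against 8.05% of all genes, and the RbpJk arm 6, against 14.5%. All 3 LKB1 KO arrays lay above the controls in 3 members, against 7.77% of genes, and below them in 0 members, against 8.6%. The median change there was 0.20, against -0.01 over all genes, and 9 of 10 members had a positive change, against 47.4% of genes.

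Nfe2l2 was the only member whose difference between the 2 arms was called. Its level was 8.91, 8.85 and 8.84 in RbpJk WT livers and 8.28, 8.38 and 8.18 in RbpJk KO livers. The 3 RbpJk KO arrays were the lowest of all 12 and did not overlap with their controls. The fall of 0.59 ± 0.10 on the log2 scale passed the test (adjusted p = 0.00619). With Xist class as a covariate the change was -0.66 and remained called (adjusted p = 0.0215). In the LKB1 arm Nfe2l2 stood at 8.90, 8.72 and 8.73 in the controls and at 9.22, 9.17 and 8.95 in LKB1 KO livers. The groups did not overlap there either, the knockouts being the higher, but the change of 0.33 ± 0.10 was not called (adjusted p = 0.186), nor was it with Xist class as a covariate (0.26, adjusted p = 0.672). The difference between the 2 effects, RbpJk minus LKB1, was -0.92 ± 0.14 and passed the test (adjusted p = 0.0142), as it did in 0.181% of all genes. Over the alternatives its adjusted p ran from 0.00902 to 0.0609, and the call was lost without LKB1 WT 2 (0.0551), LKB1 WT 3 (0.0515) or RbpJk KO 3 (0.0609).

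Keap1, the substrate adaptor that hands Nrf2 to a Cul3 ubiquitin ligase, was called in neither arm. It read 5.60, 5.42 and 5.26 in LKB1 WT and 5.77, 5.50 and 5.96 in LKB1 KO livers, a change of 0.32 ± 0.16 (adjusted p = 0.669) with overlapping groups. RbpJk WT livers read 5.62, 5.54 and 5.63 and RbpJk KO livers 5.49, 5.15 and 5.58, again with overlap and with a change of -0.19 ± 0.16 (adjusted p = 0.621). With Xist class as a covariate the changes were 0.45 (adjusted p = 0.572) and -0.052 (adjusted p = 0.947). The difference between the arms, -0.51 ± 0.22, was not called (adjusted p = 0.504, 95% interval -0.98 to -0.03 before adjustment).

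Txnrd1 encodes the cytosolic thioredoxin reductase, a selenoenzyme that passes electrons from NADPH to thioredoxin. RbpJk WT livers had 7.63, 7.55 and 7.72 and RbpJk KO livers 8.21, 8.32 and 8.42. All 3 knockouts lay above all controls and above both groups of the LKB1 arm. The change of 0.69 ± 0.11 was called (adjusted p = 0.00403) and remained so with Xist class as a covariate (0.67, adjusted p = 0.0397). In the LKB1 arm the level was 7.62, 7.36 and 7.61 in controls and 7.74, 7.80 and 7.59 in knockouts. Those groups overlapped, the change being 0.18 ± 0.11 (adjusted p = 0.807). The 2 effects differed by 0.51 ± 0.15, which was not called (adjusted p = 0.274, 95% interval 0.18 to 0.84 before adjustment).

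Srxn1 encodes sulfiredoxin, which repairs over-oxidized peroxiredoxins. LKB1 WT livers read 6.43, 6.02 and 6.67 and LKB1 KO livers 7.20, 7.70 and 7.10. RbpJk WT livers read 6.76, 6.87 and 6.30 and RbpJk KO livers 7.68, 7.14 and 7.86. In both arms every knockout lay above every control. The change was 0.96 ± 0.22 after LKB1 deletion (adjusted p = 0.071) and 0.92 ± 0.22 after RbpJk deletion (1.89-fold, adjusted p = 0.0582), so neither was called in the fit over 12 arrays. With Xist class as a covariate the changes were 0.73 (adjusted p = 0.455) and 0.69 (adjusted p = 0.323). Fitting the 6 arrays of the LKB1 arm alone called the first (adjusted p = 0.0484), and leaving out RbpJk KO 2 called the second (1.13, adjusted p = 0.0276). The effects differed by -0.04 ± 0.32, with a 95% interval from -0.72 to 0.64.

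Gsr encodes glutathione reductase, which returns oxidized glutathione to its reduced form with NADPH. Its level was 7.15, 7.20 and 7.26 in RbpJk WT livers and 7.81, 8.0 and 7.79 in RbpJk KO livers. The 3 knockouts stood above all other arrays, and the spread within each group was small beside the gap. The change of 0.66 ± 0.10 was called (adjusted p = 0.00325, and 0.032 with Xist class as a covariate). In the LKB1 arm Gsr read 7.10, 7.28 and 7.14 in controls and 7.32, 7.23 and 7.25 in knockouts. These overlapped, with a change of 0.10 ± 0.10 (adjusted p = 0.966). The difference of 0.57 ± 0.14 between the arms was not called (adjusted p = 0.161, 95% interval 0.26 to 0.87 before adjustment).

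Gclc and Gclm encode the catalytic and the modifier subunit of glutamate-cysteine ligase, the rate-limiting enzyme of glutathione synthesis. Gclc read 8.77, 9.0 and 8.92 in LKB1 WT, 8.57, 8.81 and 8.82 in LKB1 KO, 8.80, 8.88 and 8.93 in RbpJk WT and 8.54, 9.18 and 8.96 in RbpJk KO livers. Its changes were -0.16 ± 0.14 (adjusted p = 0.929) and 0.03 ± 0.14 (adjusted p = 0.957), with overlap in both arms. Gclm lay between 8.75 and 9.12 on all 12 arrays. Its changes were 0.01 ± 0.11 in the LKB1 arm (95% interval -0.23 to 0.24) and 0.13 ± 0.11 in the RbpJk arm (-0.11 to 0.37). No 95% interval of either subunit reached a doubling.

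Nqo1, a quinone reductase that spares cells the semiquinone radical, was called in neither arm. It read 5.51, 5.78 and 5.61 in LKB1 WT and 5.82, 6.05 and 5.71 in LKB1 KO livers, a change of 0.23 ± 0.18 (adjusted p = 0.916). RbpJk WT livers read 5.85, 5.47 and 5.85 and RbpJk KO livers 5.45, 5.87 and 6.16, a change of 0.10 ± 0.18 (adjusted p = 0.838). The groups overlapped in both arms, and the RbpJk KO arrays held both the lowest and the highest of the 12 values.

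Hmox1 encodes heme oxygenase 1, which opens heme to biliverdin, iron and carbon monoxide and is made by macrophages that clear red cells as well as by stressed hepatocytes. LKB1 WT livers read 9.98, 10.03 and 9.89 and LKB1 KO livers 10.01, 10.07 and 9.84. The groups overlapped, and the change was 0.01 ± 0.12 (95% interval -0.25 to 0.26). RbpJk WT livers read 9.49, 9.44 and 9.94 and RbpJk KO livers 10.23, 10.13 and 10.02. The groups were apart by a narrow margin set by RbpJk WT 3, and the change of 0.50 ± 0.12 fell just short of a call (1.42-fold, adjusted p = 0.0513). It was called without RbpJk WT 3 (0.66, adjusted p = 0.00414) and after median centring (0.56, adjusted p = 0.0175). With Xist class as a covariate it was not (0.53, adjusted p = 0.164). The effects in the 2 arms differed by 0.50 ± 0.17, which was not called (adjusted p = 0.356, 95% interval 0.13 to 0.86 before adjustment). Against LKB1 WT livers, RbpJk WT livers differed by -0.34 ± 0.12, with overlap and no call (adjusted p = 0.258).

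Markers of macrophages and red cells were read beside Hmox1. All 6 Kupffer cell and macrophage markers (Clec4f, Vsig4, Adgre1, Cd5l, Marco and C1qb) summed to 10.78 to 11.05 in RbpJk WT and 11.002 to 11.10 in RbpJk KO livers. Of these, Cd5l was called up (0.70 ± 0.14) and Adgre1 down (-0.44 ± 0.10), beside 1.12% and 0.565% of all genes. In the LKB1 arm the same sum was 10.83 to 10.95 in controls and 10.50 to 10.57 in knockouts, with 6 of 6 markers lower and 0 called. There 47.4% of all genes had a positive change and 0.543% were called down. All 3 LKB1 KO arrays lay below the controls in 4 of the 6 markers, against 8.6% of all genes. Of 6 erythroid markers 5 were measured, with sums of 12.16 to 12.34 in LKB1 WT, 11.84 to 12.29 in LKB1 KO, 11.35 to 11.94 in RbpJk WT and 11.33 to 11.78 in RbpJk KO livers. The dimmest group mean of a measured marker in these lists was 6.80. The part of either cell type in the Hmox1 levels was not tested.

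Ugdh encodes the enzyme that oxidizes UDP-glucose to UDP-glucuronic acid, the sugar donor of drug and bilirubin glucuronidation and of glycosaminoglycan synthesis. LKB1 WT livers read 6.09, 6.21 and 6.17 and LKB1 KO livers 6.83, 7.24 and 7.0. RbpJk WT livers read 6.87, 6.54 and 5.98 and RbpJk KO livers 7.44, 7.39 and 7.79. Knockouts lay above their own controls in both arms, and the RbpJk controls were the most spread of the groups. The change in the RbpJk arm, 1.07 ± 0.19, was called (adjusted p = 0.0101). That call was lost with the 6 arrays of the arm alone (adjusted p = 0.0738), with Xist class as a covariate (1.02, adjusted p = 0.088) and without RbpJk KO 3 (0.95, adjusted p = 0.06). The change in the LKB1 arm, 0.86 ± 0.19, narrowly missed the threshold (adjusted p = 0.0515) and passed it with the 6 arrays of the arm alone (adjusted p = 0.00898) or among genes with a mean of at least 5 (adjusted p = 0.0251). It did not pass with Xist class as a covariate (0.81, adjusted p = 0.263). The effects differed by 0.21 ± 0.27, with a 95% interval from -0.37 to 0.79.

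**Figure D2:**
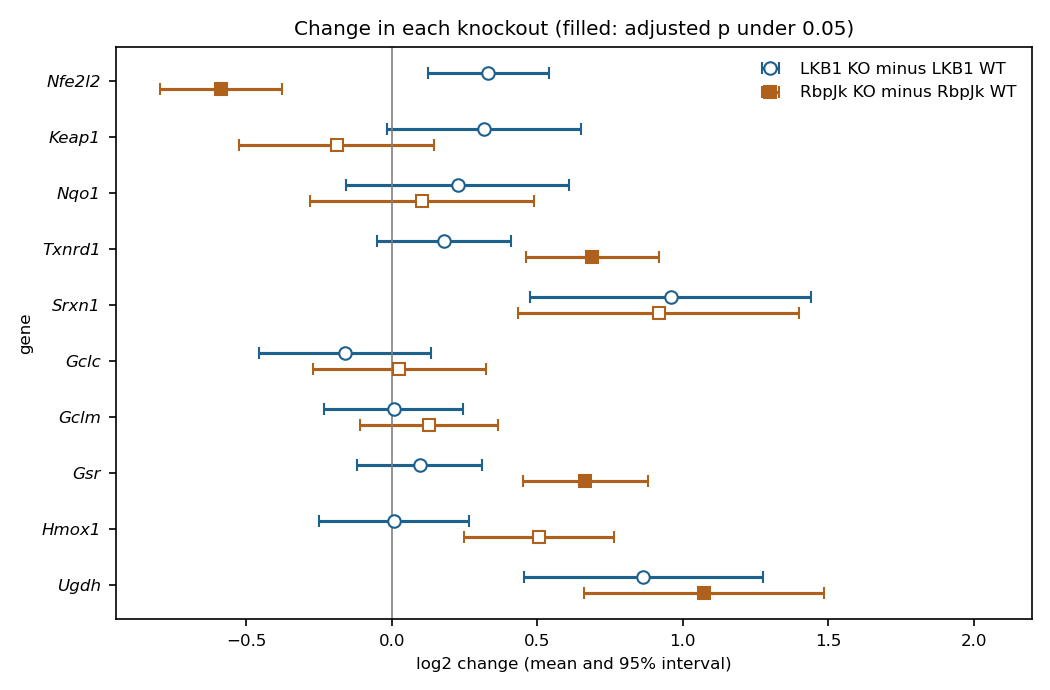
Change of each of the 10 genes, KO minus WT on the log2 scale (x axis), in the LKB1 and the RbpJk arm; points are limma estimates and bars their 95% intervals, with filled points for called changes. The filled points are Txnrd1, Gsr and Ugdh to the right of 0 and Nfe2l2 to the left, all in the RbpJk arm.

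The promoters of Ugdh and Srxn1 are shown because both genes had all knockouts above their controls in both arms. Each window runs from 250 bases before to 50 after the RefSeq transcription start, on GRCm38.p6, and is read along the gene. Capitals mark the core of the antioxidant response element (TGACNNNGC, or GCNNNGTCA where it lies on the opposite strand) and, in Srxn1, also AP-1 sites (TGANTCA). Ugdh lies on chr5:65435793-65436092 (minus strand) and Srxn1 on chr2:152105274-152105573 (plus strand).
Ugdh: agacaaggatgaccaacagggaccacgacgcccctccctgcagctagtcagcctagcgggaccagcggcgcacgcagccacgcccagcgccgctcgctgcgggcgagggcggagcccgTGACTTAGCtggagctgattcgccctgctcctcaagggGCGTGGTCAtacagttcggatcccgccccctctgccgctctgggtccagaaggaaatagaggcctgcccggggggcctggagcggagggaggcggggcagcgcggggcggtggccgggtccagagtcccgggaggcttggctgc
Srxn1: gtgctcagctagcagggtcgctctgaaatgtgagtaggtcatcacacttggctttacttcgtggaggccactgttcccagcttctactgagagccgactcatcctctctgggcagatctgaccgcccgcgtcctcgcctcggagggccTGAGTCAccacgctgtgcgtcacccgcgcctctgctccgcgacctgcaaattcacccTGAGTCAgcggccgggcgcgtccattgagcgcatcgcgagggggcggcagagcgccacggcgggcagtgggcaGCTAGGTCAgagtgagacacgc
The Ugdh window held the element core at positions -132 and -94, counted from the start, and no AP-1 site. The Srxn1 window held it at position 29 and AP-1 sites at -102 and -45. With the bases after it the -45 site reads TGAGTCAGC, which has G where the searched core has C. Forms of the core with G at that place were not searched.

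Of the 10 members, 7 had 9 windows in the RefSeq table, and the core was found in 5 of the 9, against 12.4% of all 32851 windows of the table. Since the enzymes were chosen as known Nrf2 targets, a high share is built into the choice. The windows were not matched for base composition. The other matches are shown because Txnrd1 and Nfe2l2 were called in the RbpJk arm while Gclm was not, each with the core in capitals. They lie on chr2:75704880-75704913 (minus strand) for Nfe2l2, chr10:82859099-82859137 (plus strand) for Txnrd1 and chr3:122245408-122245446 (plus strand) for Gclm.
Nfe2l2: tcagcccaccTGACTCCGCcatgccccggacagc
Txnrd1: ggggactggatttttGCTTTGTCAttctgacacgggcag
Gclm: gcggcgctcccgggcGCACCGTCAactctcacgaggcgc
They begin at -240, -92 (in the second of 3 Txnrd1 starts) and -134. These letters were not in the windows of Nqo1 and Keap1 or of the other Txnrd1 starts. Bases farther than 250 before or 50 after a start were not searched, so elements there would be missed. AP-1 sites stood in 7.81% of all windows and, of the 9, only in that of Srxn1. The core of the site bound by the Rbpj protein (TGGGAA) stood in 25.6% of all windows, and in those of Srxn1 (-177), Nqo1 (-113) and the second Txnrd1 start (-239). The motifs can overlap each other, but no marked pair did here. Of the members with a window, the 3 called in the RbpJk arm held the element core in at least 1 window, as did Srxn1 and Gclm, which were not called there. A match is a string of letters and was not tested as a binding site.

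The control groups were compared next, because each arm had controls of its own. Between RbpJk WT and LKB1 WT livers 0 of 10 members were called, as against 0.699% of all genes, and 1 member, Hmox1, had an unadjusted p under 0.05, as 12.5% of all genes did. The changes ran from -0.34 for Hmox1 to 0.31 for Ugdh, with overlap in every member. Leaving out RbpJk WT 3 called Hmox1 (-0.50, adjusted p = 0.0369). Line, experiment and batch cannot be told apart in this contrast.

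Other genes of the Nrf2 pathway, 43 of 49 listed being measured, were read beside the members. This list too was chosen with earlier results of these data known, so its shares are a description and no test. In RbpJk KO livers 5 of 43 were called up and 0 down, beside 1.12% and 0.565% of all genes, with a median change of 0.17 against -0.03. In LKB1 KO livers 1 of 43 was called up and 0 down, beside 0.418% and 0.543%, with a median of 0.07 against -0.01. The gene called in both arms was Cbr1, a carbonyl reductase. It read 7.81, 7.52 and 7.53 in LKB1 WT and 8.43, 8.24 and 8.28 in LKB1 KO livers (0.69 ± 0.12, adjusted p = 0.00822), and 8.35, 8.04 and 8.10 in RbpJk WT and 8.69, 8.65 and 8.85 in RbpJk KO livers (0.57 ± 0.12, adjusted p = 0.0224). The RbpJk call of Cbr1 held in 9 of 17 alternatives and was lost, among others, with Xist class as a covariate (adjusted p = 0.0911), with the 6 arrays of the arm alone (adjusted p = 0.0953) and without RbpJk WT 2, RbpJk WT 3, RbpJk KO 1 or RbpJk KO 3.

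Txnip, whose protein binds and inhibits thioredoxin, had the smallest adjusted p of these genes. It read 8.68, 8.67 and 8.92 in RbpJk WT and 9.66, 9.81 and 9.98 in RbpJk KO livers, a rise of 1.06 ± 0.10 (2.09-fold, adjusted p = 0.000138). In the LKB1 arm it lay between 8.76 and 8.98 on all 6 arrays (0.03 ± 0.10), and the difference between the arms was called (1.03 ± 0.15, adjusted p = 0.0109). Txnip is known to be induced by glucose and is not a standard Nrf2 target, though it is among the 5 genes counted as called up in RbpJk KO livers. Sqstm1, which encodes the Keap1-binding autophagy receptor p62, rose by 0.60 ± 0.11 in RbpJk KO livers (adjusted p = 0.0149), where the 3 knockouts read 8.95, 8.96 and 9.27 against 8.46, 8.45 and 8.48. Akr1b8, an aldo-keto reductase, rose by 0.82 ± 0.18 (adjusted p = 0.0345), and Osgin1, a stress-induced growth inhibitor, by 0.99 ± 0.22 (adjusted p = 0.037). Their changes after LKB1 deletion were -0.30 ± 0.18 (adjusted p = 0.806) and -0.56 ± 0.22 (adjusted p = 0.448), with the 3 knockouts below the 3 controls in both genes, and neither difference between the arms was called (adjusted p = 0.119 and 0.071). The calls of Akr1b8 and Osgin1 held in 9 and 7 of 17 alternatives. Osgin1 read 8.35, 9.28 and 9.31 in RbpJk WT livers, the lowest on RbpJk WT 1, and 10.09, 9.81 and 9.99 in RbpJk KO livers. LKB1 WT livers read 9.58, 10.10 and 9.97, so the RbpJk knockouts stood at the level of those controls. Between the control groups Osgin1 differed by -0.91 (RbpJk WT minus LKB1 WT), without a call. The count of 5 fell to 3 without RbpJk WT 1, RbpJk WT 2 or RbpJk KO 2, and to 1 without RbpJk KO 3 or with Xist class as a covariate, which left Txnip called (1.11, adjusted p = 0.00161). Cbr1 in the LKB1 arm was not called without LKB1 WT 2 (adjusted p = 0.0565) or LKB1 WT 3 (adjusted p = 0.0596).

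Of the pathway lists, NADPH supply, exporters, and heme and iron held 0 called genes in either arm. Of all genes, 0.962% (LKB1) and 1.68% (RbpJk) were called, and for lists this small 0 is near that share. The RbpJk calls lay elsewhere, with 2 of 8 genes in carbonyl, epoxide and quinone detoxification and 1 of 3, Txnip, in thioredoxin and peroxiredoxin. Partners and regulators had 1 of 10, and other inducible targets 1 of 4. Of 5 measured genes of NADPH supply, 5 had positive changes in each arm, up to 0.41 in LKB1 KO and 0.39 in RbpJk KO livers, and 0 were called. Positive changes were found for 47.4% of all genes in the LKB1 arm and 45.1% in the RbpJk arm. The 4 exporters Abcc2, Abcc3, Abcc4 and Abcc5 had negative changes in LKB1 KO livers, from -0.47 to -0.11, and positive ones in RbpJk KO livers, from 0.01 to 0.23, with 0 called. Endothelial markers had changes of the same signs, 6 of 6 being negative in the LKB1 arm (-0.54 to -0.19) and positive in the RbpJk arm (up to 0.25), with 0 called. Their summed levels were 10.98 to 11.08 in LKB1 WT, 10.63 to 10.85 in LKB1 KO, 10.73 to 10.91 in RbpJk WT and 10.88 to 11.05 in RbpJk KO livers, and their part in the exporter values was not tested. Of 4 heme and iron genes, 0 were called, with changes from -0.05 to 0.10 in the LKB1 arm and from -0.08 to 0.16 in the RbpJk arm.

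**Figure D3:**
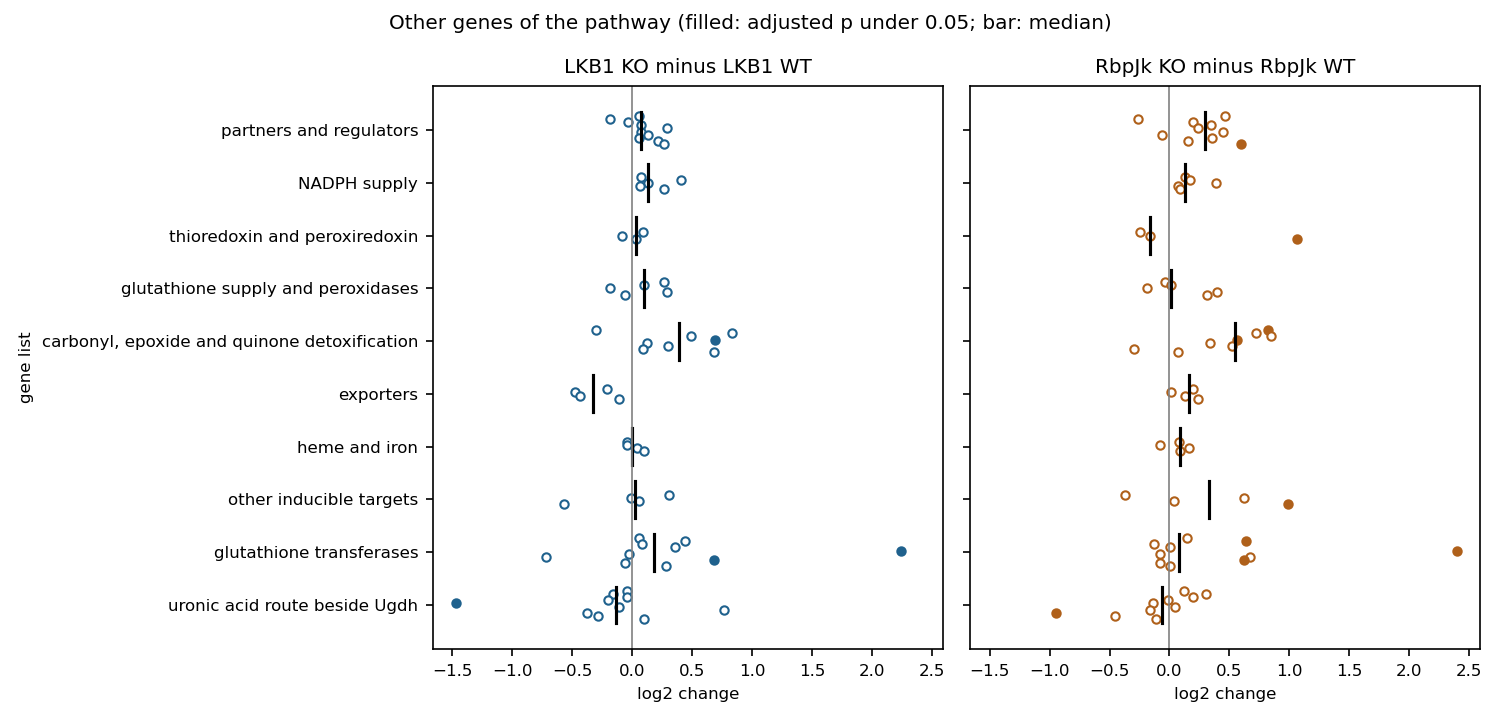
Change of each measured gene of 10 lists, KO minus WT on the log2 scale (x axis), with the LKB1 arm on the left and the RbpJk arm on the right; each point is 1 gene, filled points are called changes and vertical bars are list medians. In the upper 8 lists, those of the pathway, 5 of 43 points are filled in the RbpJk arm and 1 in the LKB1 arm.

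Among themselves, the members showed no common direction within groups. After the group means were removed, the 45 pairs of members had a median correlation of -0.01 over the 12 arrays, and 22 of them were positive. The highest values joined Gclc with Gclm (r = 0.64), Nqo1 with Gclm (0.62), Srxn1 with Ugdh (0.61), Nqo1 with Gclc (0.56) and Gclc with Gsr (0.55). The lowest, -0.81, was that of Srxn1 with Gsr. These are descriptions over arrays that share processing, with 3 arrays behind each group mean.

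**Figure D4:**
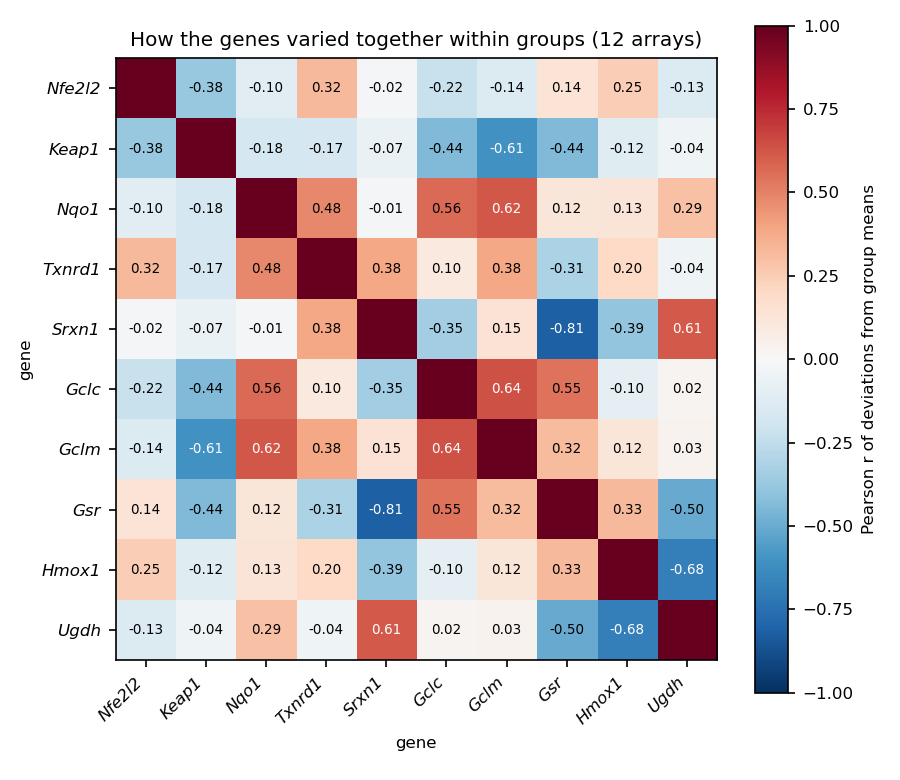
Pearson correlation of the 10 genes over 12 arrays after group means were subtracted; each cell is a pair of genes, red for positive and blue for negative values. The pairs of Gclc, Gclm and Nqo1 are at 0.56 to 0.64, and Srxn1 with Gsr is at -0.81.

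For the members called in an arm, the genes with the most similar levels over the 12 arrays were listed. For Nfe2l2 these were Coa4 (r = 0.93), Zfp383 (0.92) and Pramel27 (0.92). For Txnrd1 they were Clu, Heg1 and Rdh11 (each 0.96), and for Gsr they were Map4k4 (0.98), Snx24 (0.97) and Eid3 (0.96). Ugdh was most like H2-Q10 (0.96), Synpo (0.95) and the desaturase gene Scd1 (0.94). Group differences are part of these values, since they were computed over all arrays.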

How the data were processed

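Liver RNA of 12 mice (4 groups of 3, from the labels) was extracted with Trizol and hybridised as biotinylated cDNA. Mouse Gene 2.0 ST arrays are named in the study's methods and Partek in the submitters' notes. The deposited values are log2 expression, 1 per probe set, from 1.19 to 13.0. How they were background-corrected and normalized is not given in the sources used here. Labels pair no arrays and give no batch. Of 25206 probe sets, 23185 have 1 gene symbol and 2021 none. All 23185 matched RefSeq (GRCm38.p6). No value was filtered or changed.

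A group-means model over 12 arrays was fitted with limma 3.58.1 in R 4.3.3 (8 residual degrees of freedom, eBayes with an intensity trend), with Benjamini-Hochberg adjustment over 23185 genes, and was tested on simulated data. Adjusted p-values come from it unless an alternative fit is named beside them. The p-values measure the spread between these mice, and the number of arrays limits precision. Members, lists, naming rule (all members, and every called gene of the pathway, transferase and uronic acid lists) and alternatives were chosen with earlier results of these data known. Promoters are from RefSeq. A planned comparison of member proteins was not run.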

Additional observations from a re-analysis of the deposited data

Results flagged for a closer look

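Nfe2l2 was set aside for a closer look because its response differed between the 2 arms by a direct test. The RbpJk effect minus the LKB1 effect was -0.92 ± 0.14 on the log2 scale (limma, adjusted p = 0.0142). All 3 RbpJk KO arrays lay below their controls, and all 3 LKB1 KO arrays lay above theirs. The LKB1 effect alone was not called. No other member passed this test, while 5 members, Nfe2l2 among them, had an unadjusted p under 0.05, as 9.13% of all genes did.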

How the results depend on the processing

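Each arm was refitted under 17 alternatives, 6 of which left out 1 array. Members called in the LKB1 arm rose from 0 to 2 with its 6 arrays alone, array weights or genes with a mean of 5 or more, to 1 with robust variance and to 3 by the methods' t-test unadjusted. In the RbpJk arm they fell from 4 to 0 by the methods' t-test after Benjamini-Hochberg, which called 0 genes of all in either arm. The RbpJk calls of Nfe2l2, Txnrd1 and Gsr each held in 16 of 17 alternatives and that of Ugdh in 13, with the direction kept in all 17. Here and elsewhere the 17 include the methods' t-test unadjusted, where an unadjusted p under 0.05 was counted as a call. Leaving out arrays gave 0 to 1 members called for the difference between arms and 0 to 1 between controls. Other pathway genes called in the LKB1 arm moved from 1 to 2 (6 arrays), 3 (weights), 0 (t-test adjusted), 6 (unadjusted) and 0 to 1 (arrays left out). In the RbpJk arm they moved from 5 to 1 (6 arrays or Xist class), 3 (no trend), 0 and 12 (t-test adjusted and unadjusted), 9 (median centring) and 1 to 5 (arrays left out).

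All genes called in the LKB1 arm numbered 223, against 131 with no trend, 512 with weights, 2253 by the unadjusted t-test, 132 with Xist class and 106 to 183 with arrays left out. In the RbpJk arm the count of 390 became 157 with 6 arrays, 259 with weights, 2071 by the unadjusted t-test, 590 after median centring, 187 with Xist class and 194 to 465 with arrays left out. Centring made 79.0% of RbpJk calls rises, against 66.4%.

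Changes near 0 turned sign. Gclm in the LKB1 arm was -0.088 with Xist class and -0.071 to 0.071 with arrays left out. Gclc in the RbpJk arm was -0.0027 with weights, -0.025 after quantile normalization and -0.12 to 0.20 with arrays left out. Between controls Gclc was 0.0081 after quantile normalization and -0.089 to 0.025 with arrays left out, and Gsr was -0.029 after centring and -0.0068 to 0.084 with arrays left out. With arrays left out, Hmox1 (-0.040 to 0.074) and Txnip (-0.028 to 0.073) turned in the LKB1 arm, Nqo1 (-0.064 to 0.29) in the RbpJk arm, and Nqo1 (-0.29 to 0.064), Srxn1 (-0.21 to 0.17) and Ugdh (-0.033 to 0.41) in the difference. The cause was not tested. No paired analysis was possible because the labels link no arrays across groups.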

Other observations

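Related groups of detoxifying genes outside the members were also read, from lists chosen with earlier results of these data known. Of 10 measured glutathione transferases, 2 were called up in LKB1 KO and 3 in RbpJk KO livers, with 0 called down, beside 0.418% and 1.12% of all genes called up. Gstm3 had the largest changes of these, reading 5.82, 5.06 and 4.82 in LKB1 WT and 7.52, 7.72 and 7.20 in LKB1 KO livers (2.25 ± 0.37, adjusted p = 0.00804), and 5.50, 5.52 and 4.8 in RbpJk WT and 6.65, 7.93 and 8.45 in RbpJk KO livers (2.40 ± 0.37, adjusted p = 0.00412). Neither Gstm3 call held with Xist class as a covariate (1.98, adjusted p = 0.0998, and 2.14, adjusted p = 0.0517). Gstp1 rose by 0.68 ± 0.08 and 0.62 ± 0.08, and also differed between the control groups (0.56 ± 0.08, adjusted p = 0.00477). Gsta4 was called in RbpJk KO livers (0.64 ± 0.14, adjusted p = 0.0296), in 8 of 17 alternatives, and not in LKB1 KO livers (0.44 ± 0.14, adjusted p = 0.232), where 2 alternatives called it. Its difference between arms was not called (adjusted p = 0.833). Transferases of 1 class are close in sequence, so their probe sets can share signal.

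Among 10 measured genes around Ugdh in the uronic acid route, which supply its substrate or use or carry its product, no gene was called up in either arm and 1 was called down in each, beside 0.543% (LKB1) and 0.565% (RbpJk) of all genes. Ugt1a1, the bilirubin glucuronosyltransferase, fell in LKB1 KO livers by 1.47 ± 0.22 on the log2 scale (adjusted p = 0.00373), from 8.08, 8.47 and 8.45 to 7.41, 6.96 and 6.23. Ugt2b1 fell in RbpJk KO livers by 0.94 ± 0.15 (adjusted p = 0.0037), from 9.19, 9.24 and 9.50 to 8.04, 8.69 and 8.37. Genes of the Ugt1a cluster share their last exons, and where these probes lie was not looked up. Between the controls, RbpJk WT livers had less Ugt1a9, another glucuronosyltransferase (-1.69 ± 0.26, adjusted p = 0.00636). RbpJk WT livers also had more Me1 (1.23 ± 0.23, adjusted p = 0.0224), which encodes malic enzyme, a source of NADPH. Me1 was dim, with a mean of 4.55 in LKB1 WT livers, below the lowest array median of 4.84. It was the 1 gene called of the 43 pathway genes between the controls, beside 0.699% of all genes.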
